A study of Canis lupus familiaris with 8 samples.

Results

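The genes described here encode the enzymes, kinases, phosphatase partners and transporters of glycolysis, lactate exchange and glycogen turnover, as measured in the hearts of control dogs and of dogs with hyperhomocysteinemia (HHcy), the state in which homocysteine accumulates in the blood. A list of 45 gene names was drawn up, and a name was kept where the platform annotation gave it at least 1 probe set with a single gene symbol; a gene with several probe sets was represented by the brightest one over all 8 arrays. That left 33 genes of the 6540 genes named on the array in this way. The other 12 names, PFKFB2, ALDOA, PKM2 (an older name of PKM), SLC16A1, SLC16A3, GYS1, GBE1, PYGB, PHKA1, PPP1R3A, PPP1R3D and STBD1, were not analysed here; ALDOA was named only together with other genes on 1 probe set.

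Heart RNA came from 8 male dogs of 23 to 27 kg, 1 Affymetrix canine array per dog. In the HHcy group, 4 dogs drank water with added methionine, the dietary precursor of homocysteine, and 4 dogs served as controls; RNA of both groups was taken at 2 weeks. The model is dietary, no strain, age or genotype is given, and the labels call the tissue cardiac without naming the chamber. Dogs are called control 1 to 4 and HHcy 5 to 8, after their titles.

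Glycolysis splits glucose into pyruvate in the cytosol, and lactate dehydrogenase interconverts pyruvate and lactate, which crosses the cell membrane on monocarboxylate transporters. Glycogen is the stored form of glucose: it is primed by glycogenin, extended from UDP-glucose by glycogen synthase and taken apart by glycogen phosphorylase, which phosphorylase kinase switches on. The heart draws most of its energy from fatty acids and uses glucose, lactate and glycogen beside them. Several steps exist in forms named for the tissue where they dominate, so that PFKM, PGAM2, ENO3 and PYGM are the striated muscle forms of their enzymes and PYGL is the liver form of glycogen phosphorylase.

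The arrays were not alike in tissue markers or in RNA quality. On HHcy 6 the defining cardiomyocyte genes were low: the summed signal of 11 markers of 15 listed was 16498, against 210474 to 327260 on the controls and 225831 to 254385 on HHcy 5, 7 and 8. There 10 of the 11 lay far below their control mean (under 0.1 of it), and none was at 0. On the same array the summed signal of 5 smooth muscle markers of 6 listed was 63358, against 3394 to 11713 on the controls and 8227 to 9593 on HHcy 5, 7 and 8. That sum came mostly from ACTA2 (28849), MYH11 (20719) and TAGLN (10692). MYLK was 191 on HHcy 6, against 110 to 140 on the controls, and SMTN, at 2907, lay within the control range. The sums for 6 fibroblast markers of 8 listed were 12955 to 19347 on controls and 19220 to 52138 on HHcy arrays. Those for all 10 macrophage and myeloid markers were 6081 to 10071 and 13597 to 26432. No marker of either list was at 0. Not every marker followed its sum. CD68, CD163 and ITGAM overlapped between the groups, with ITGAM at 151 on HHcy 7, below every control. The fibroblast marker COL3A1 had a log2 fold change of -0.48. The ratio of 3' to 5' signal, which grows as RNA is degraded, was 0.378 for actin on control 2, 1.44 to 2.49 on the other controls, and 15.3, 599.6, 2.67 and 1.69 on HHcy 5 to 8. The main results are therefore given with and without HHcy 6. In tissue RNA, fewer cells of a type and less RNA per cell cannot be told apart.

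No gene of glycolysis, lactate exchange or glycogen turnover passed the test for a change in HHcy hearts, made with limma with Benjamini-Hochberg adjustment over all 14301 probe sets tested. Of the 33 genes, 27 were bright enough to test and 0 passed an adjusted p of 0.05, as against 0.0979% of all probe sets; their adjusted p ran from 0.171 for PYGM to 0.976 for PHKB. At an unadjusted p under 0.05 there were 4 of the 27 (14.8%), next to 17.8% of all probe sets, so the share was near the background. LDHA and GAA were the 2 on the higher side (11.9% of all probe sets) and PYGM and PGAM1 the 2 on the lower side (5.94%). The median log2 fold change of the 27 was -0.021 and that of all probe sets 0.15, with 12 of the 27 above 0 and 15 below. Quantile scaling moved the 2 medians to -0.16 and 0.012, and median scaling to -0.32 and -0.15. A fit that took the 3'/5' ratios as a covariate turned the sign of 14 of the 27 genes.

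Without HHcy 6 again 0 of the 27 passed, with 0.126% of all probe sets (0.119% higher, 0.00699% lower), and the medians were 0.038 and 0.11. An unadjusted p under 0.05 was then found for 1 gene on the higher side (8.62% of all probe sets) and 2 on the lower side (6.24%), together 3 of 27 against 14.9%. The groups did not overlap for 1 higher gene, LDHA (9.05%), and 1 lower gene, GSK3B (5.93%), against 15% in both directions.

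**Figure D1:**
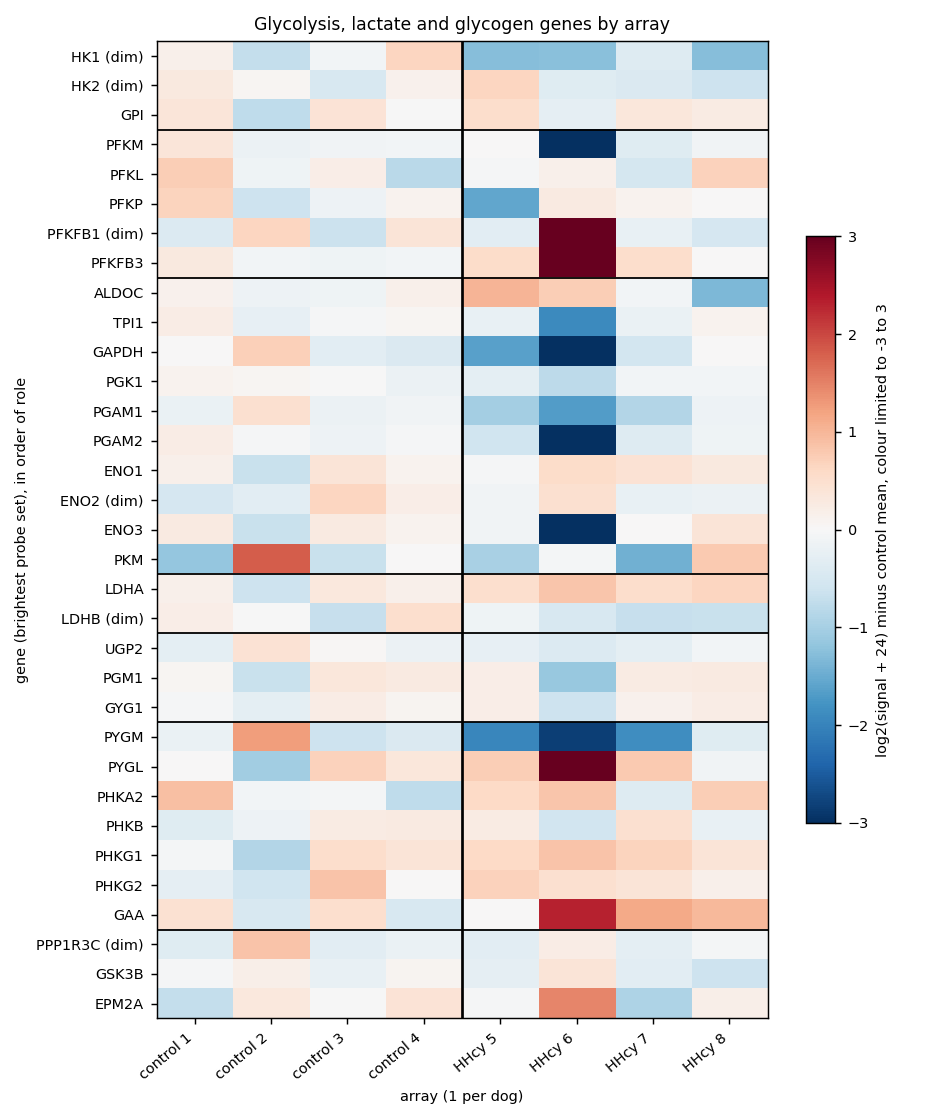
Colour shows log2(signal + 24) minus the mean of the 4 control arrays for the 33 genes (rows, brightest probe set, in order of role, with horizontal lines between roles; dim marks genes too faint to test) on the 8 arrays (columns). The strongest colours lie on HHcy 6, blue for PFKM, GAPDH, PGAM2, ENO3 and PYGM and red for PFKFB1, PFKFB3 and PYGL, while LDHA is red on all 4 HHcy arrays.

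By their brightest probe sets, the muscle forms PFKM, PGAM2, ENO3 and PYGM and GAPDH were far below every control on HHcy 6, and PFKFB3 and PYGL far above. A dimmer PYGM probe set was 146 on HHcy 6, just under the lowest control at 155. Of the 27 genes, 12 lay below every control array on HHcy 6 (23.2% of all probe sets) and 9 above every control (45.6%). On HHcy 5 these counts were 7 below (20.2%) and 6 above (35.1%), on HHcy 7 they were 8 below (21.8%) and 7 above (22.4%), and on HHcy 8 they were 2 below (17.2%) and 3 above (25.7%). A distance of over 1 log2 unit below the control mean was seen for 8 genes on HHcy 6 (13.6%), 4 on HHcy 5 (7.12%), 2 on HHcy 7 (6.63%) and 1 on HHcy 8 (4.24%). As far above it lay 4 genes on HHcy 6 (25.8%), 1 on HHcy 5 (14.7%), 1 on HHcy 7 (5.43%) and 0 on HHcy 8 (8.39%).

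Among the genes of hexose phosphorylation and isomerisation, only GPI, which turns glucose phosphate into fructose phosphate, was bright enough to test. Its signals were 12064, 5443, 12389 and 9242 on controls 1 to 4 and 13364, 7667, 11812 and 11083 on HHcy 5 to 8. The groups overlapped, with control 2 lowest. GPI had a log2 fold change of 0.21 ± 0.30 (SE, limma adjusted p 0.731), and of -0.096 with median scaling. A dimmer GPI probe set had -0.053, and 0.22 without HHcy 6. On it HHcy 6 lay below every control, at 4033 against 5044 to 9851. HK1 and HK2, the hexokinases that trap glucose in the cell, were too dim to test. HK2 gave 33.2, 25.0, 9.72 and 27.4 on the controls and 49.7, 12.6, 10.8 and 6.67 on HHcy 5 to 8, values near the pseudocount of 24, and HK1 ran from 23.1 to 95.7 on the controls and from 7.59 to 35.2 on the HHcy arrays.

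Phosphofructokinase commits sugar to glycolysis, and PFKM is its muscle form. PFKM had signals of 19615, 13628, 14198 and 14547 on the controls and 15346, 1627, 11860 and 14319 on HHcy 5 to 8. The HHcy 6 value was 9.53 times below the control mean, while HHcy 5 and HHcy 8 lay within the control range and HHcy 7 just under it. For PFKM the log2 fold change was -0.92 ± 0.59 (SE, limma adjusted p 0.424) with all arrays and -0.16 ± 0.18 (adjusted p 0.704) without HHcy 6. The other 2 PFKM probe sets showed the same drop on HHcy 6, with log2 fold changes of -1.32 and -1.14, and -0.34 and -0.38 without that array. The liver and platelet forms PFKL and PFKP had log2 fold changes of 0.066 and -0.29, with an adjusted p of 0.943 and 0.731.

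PFKFB3, a bifunctional enzyme that makes the sugar phosphate activating phosphofructokinase, ran the other way on HHcy 6. Its signals were 657, 503, 480 and 496 on the controls and 782, 5188, 776 and 531 on HHcy 5 to 8. The HHcy 6 value was 9.71 times the control mean, HHcy 5 and HHcy 7 lay just above the controls and HHcy 8 among them. PFKFB3 had a log2 fold change of 1.08 ± 0.57 (SE, limma adjusted p 0.339), and 0.36 ± 0.25 (adjusted p 0.511) without HHcy 6. PFKFB1, the liver form of the same kind of enzyme, was too dim to test: it gave 8.42 to 55.0 on the controls, 11.6 to 19.3 on HHcy 5, 7 and 8, and 2083 on HHcy 6. PFKFB1 was the only gene whose brightest probe set would be another one without HHcy 6. That other PFKFB1 probe set, also too dim to test, did not show the rise on HHcy 6. It gave 25.5 to 97.9 on the controls and 130, 106, 10.8 and 52.7 on HHcy 5 to 8.

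**Figure D2:**
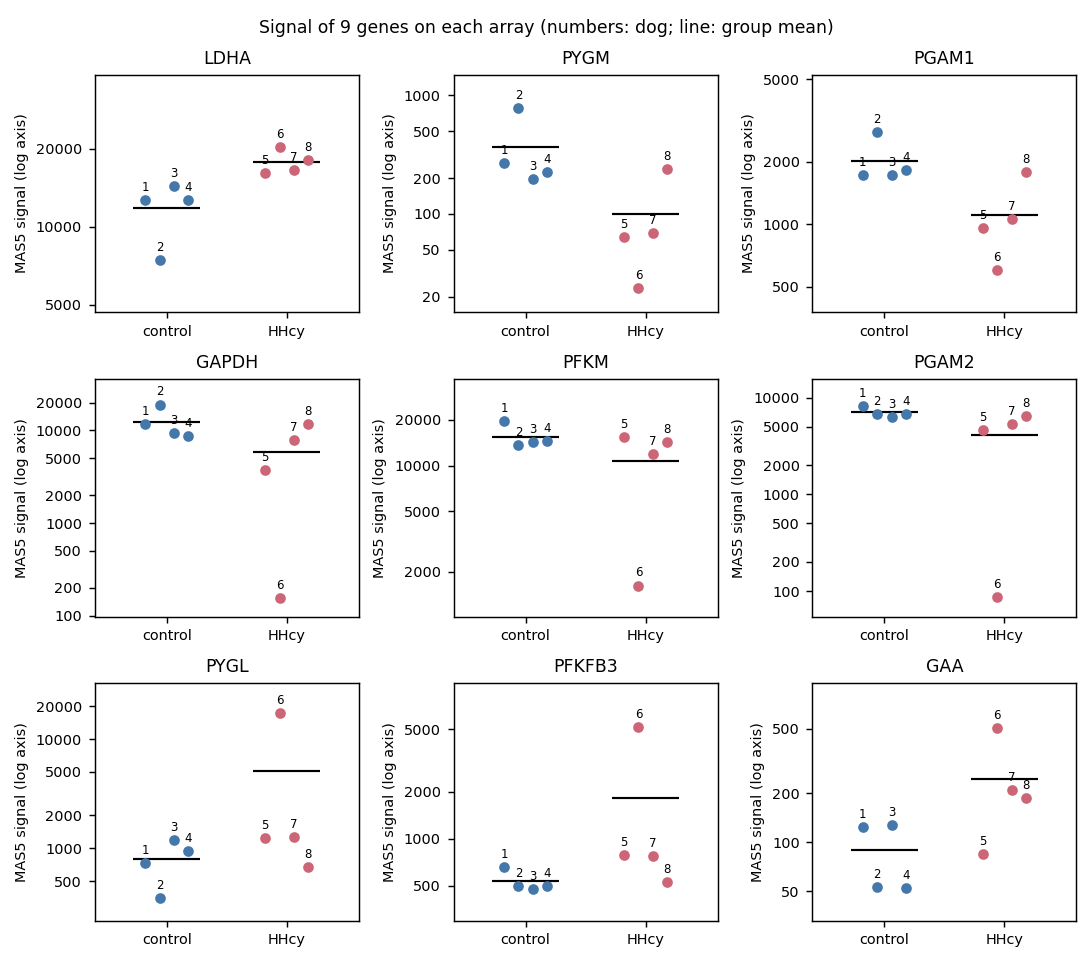
MAS5 signal (log axis) of 9 genes on each array, controls in blue and HHcy in red, with the dog's number above each point and a line at the group mean. LDHA separates the groups, PYGM and PGAM1 overlap through HHcy 8, and GAPDH, PFKM, PGAM2, PYGL and PFKFB3 differ mainly on HHcy 6.

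Between aldolase and pyruvate kinase, 7 of the 9 tested genes had log2 fold changes below 0, against 5723 of all 14301 probe sets. The median of the 9 was -0.56, or -0.15 without HHcy 6. In the covariate fit GAPDH, PGAM2, ENO3, TPI1, PGK1 and PKM turned above 0, ALDOC turned below 0 and PGAM1 stayed below. PGAM1, the widely expressed phosphoglycerate mutase, gave 1727, 2779, 1734 and 1833 on the controls and 966, 602, 1066 and 1785 on HHcy 5 to 8. HHcy 5, 6 and 7 lay below every control, and HHcy 8 lay among them. PGAM1 had a log2 fold change of -0.93 ± 0.33 (SE, limma adjusted p 0.199), and -0.68 ± 0.27 (adjusted p 0.287) without HHcy 6.

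PGAM2, the muscle form of the mutase, gave 8274, 6815, 6346 and 6844 on the controls and 4639, 87.1, 5390 and 6409 on HHcy 5 to 8. HHcy 6 was 81.2 times below the control mean, and HHcy 5 and HHcy 7 also lay under the controls. The fitted log2 difference of PGAM2 was -1.78 ± 1.03 (SE, limma adjusted p 0.380), and -0.37 ± 0.19 (adjusted p 0.372) without HHcy 6.

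GAPDH, which carries out the oxidation step of glycolysis, gave 11746, 19076, 9367 and 8620 on the controls and 3734, 156, 7925 and 11700 on HHcy 5 to 8. HHcy 5, 6 and 7 lay below the controls, and HHcy 6 was 78.2 times below their mean. GAPDH had a log2 fold change of -2.04 ± 1.02 (SE, limma adjusted p 0.315), and -0.72 ± 0.36 (adjusted p 0.365) without HHcy 6.

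The array also carries GAPDH control probe sets at the 3' end, the middle and the 5' end of the transcript. At the 3' end the signal was 25352, 26528 and 31172 on HHcy 5, 7 and 8, inside the control range of 21524 to 34113, and 2951 on HHcy 6. At the 5' end it was 1475, 282, 5160 and 8764 on HHcy 5 to 8, against 6871 to 20529 on the controls. Leaving out HHcy 6, the log2 difference between the groups was thus 0.035 at the 3' end, -0.63 in the middle and -1.27 at the 5' end, given without a test since control probe sets were not in the fit. The GAPDH 3'/5' ratio was 17.2, 10.5, 5.14 and 3.56 on HHcy 5 to 8, against 1.46 on control 2 and 3.13 to 3.76 on the other controls. In the covariate fit on 3'/5' ratios, the GAPDH gene probe set had a log2 difference of 0.58 ± 0.52 (SE, limma adjusted p 0.933). The covariate was built from the actin and GAPDH ratios, so this value is not independent of GAPDH itself.

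ENO3, the muscle enolase, had 4 tested probe sets that differed from each other. The brightest gave 12755, 6647, 12741 and 11372 on the controls and 9843, 817, 10688 and 13683 on HHcy 5 to 8, so that HHcy 6 alone lay below the controls and HHcy 8 just above them. Its log2 fold change was -0.84 ± 0.72 (SE, limma adjusted p 0.544), and 0.10 ± 0.24 (adjusted p 0.861) without HHcy 6. The other 3 ENO3 probe sets had -1.94, -2.09 and -2.02, and without HHcy 6 they had -0.29, -0.97 and -1.66. ENO1, the widely expressed enolase, had 0.31 ± 0.27 (SE, adjusted p 0.547), with 2427 to 3638 on the HHcy arrays against 1562 to 3244.

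PGK1, the first ATP-making step, showed both directions among its probe sets. The brightest gave 4451, 4303, 4099 and 3632 on the controls and 3344, 2386, 3897 and 3882 on HHcy 5 to 8, with a log2 fold change of -0.31 ± 0.23 (SE, limma adjusted p 0.489). HHcy 5 and HHcy 6 lay under the controls and the other arrays among them. Of the other 3, the dimmest had -1.0 ± 0.41 (SE, limma adjusted p 0.243) and did not overlap between the groups, at 71.7 to 195 on the controls and 35.6 to 61.6 on the HHcy arrays. Another had -0.36, and the last had 0.58, which became 1.18 without HHcy 6 (adjusted p 0.221), where its HHcy arrays all lay above the controls.

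TPI1, the isomerase below aldolase, gave 5381, 3854, 4451 and 4810 on the controls and 3932, 1197, 4015 and 4929 on HHcy 5 to 8, and only HHcy 6 left the control range. Its log2 fold change was -0.56 ± 0.39 (SE, limma adjusted p 0.455), and -0.10 ± 0.19 without HHcy 6. PKM, the pyruvate kinase of muscle and most other tissues, was near the limit of the dim filter, with 27.4, 381, 48.8 and 91.6 on the controls and 34.3, 85.7, 18.5 and 175 on HHcy 5 to 8. ALDOC had a log2 fold change of 0.080, and -0.14 without HHcy 6, and ENO2 was too dim to test.

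**Figure D3:**
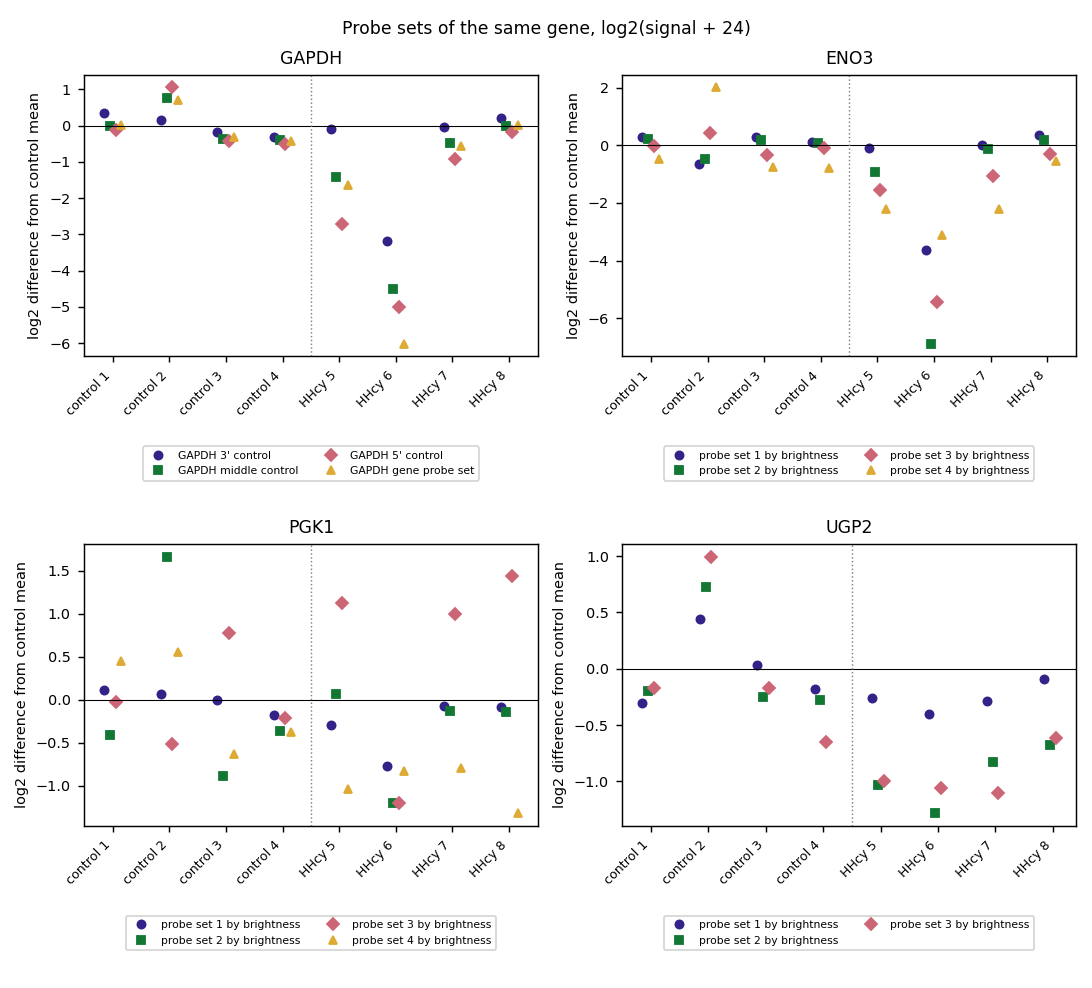
Log2(signal + 24) minus the control mean on each array for the probe sets of GAPDH (with the 3', middle and 5' control probe sets), ENO3, PGK1 and UGP2; each marker is 1 array and the dotted line divides controls from HHcy. On HHcy 5 the GAPDH 3' control probe set stays at the control level while the 5' one lies far below. Probe sets of ENO3, PGK1 and UGP2 spread apart on HHcy 5 and also on HHcy 7 and HHcy 8. Those of PGK1 run from -1.32 to 1.43 on HHcy 8.

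LDHA, the lactate dehydrogenase subunit that favours lactate formation, was the only gene of the 27 whose groups did not overlap, as 11.4% of all probe sets did not (7.49% higher, 3.89% lower). Its signals were 12702, 7461, 14370 and 12634 on the controls and 16157, 20413, 16556 and 18044 on HHcy 5 to 8. Every HHcy array lay above every control, with control 2 lowest and HHcy 6 highest. The means were 11792 ± 2997 and 17792 ± 1927 (SD, n = 4 each), a 1.55-fold difference with a log2 fold change of 0.63 ± 0.25 (SE, limma adjusted p 0.235). Without HHcy 6 it was 0.56 ± 0.22 (adjusted p 0.282), without control 2 it was 0.42 (adjusted p 0.40), and in the covariate fit 0.39 ± 0.29 (adjusted p 0.933). The summed macrophage and myeloid signal and the summed epithelial signal were likewise higher on every HHcy array than on any control. Their part in the LDHA values was not tested.

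A dimmer LDHA probe set overlapped between the groups. It gave 3527, 4572, 4971 and 4284 on the controls and 3764, 6483, 5727 and 5941 on HHcy 5 to 8, with HHcy 5 among the controls (log2 fold change 0.32 ± 0.24, SE, limma adjusted p 0.495). The probe set named LDHB, for the subunit that is abundant in heart, was dim on every array, at 2.51 to 37.2 on the controls and 2.86 to 15.7 on the HHcy arrays, so no shift between the subunits could be read from these arrays.

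For glycogen synthesis, UGP2, PGM1 and GYG1 were measured. UGP2 makes UDP-glucose, and its brightest probe set gave 2927, 4930, 3705 and 3199 on the controls and 3025, 2733, 2959 and 3391 on HHcy 5 to 8. The groups overlapped, with a log2 fold change of -0.26 ± 0.23 (SE, limma adjusted p 0.563). The next brightest UGP2 probe set gave 1790, 3432, 1731 and 1700 on the controls and 996, 834, 1153 and 1283 on HHcy 5 to 8, without overlap, and its log2 difference was -0.95 ± 0.28 (SE, limma adjusted p 0.162). Control 2 was the highest array on all 3 UGP2 probe sets.

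PGM1, which moves phosphate between positions of glucose on the way into and out of glycogen, gave 5767, 3459, 6958 and 6720 on the controls and 6388, 2495, 6510 and 6672 on HHcy 5 to 8. Control 2 and HHcy 6 were both low and the groups overlapped (log2 fold change -0.11 ± 0.36, SE, limma adjusted p 0.891). GYG1, glycogenin, gave 9388, 7833, 11191 and 10164 on the controls and 10918, 6199, 10510 and 11122 on HHcy 5 to 8, with HHcy 6 alone below the controls. Its log2 fold change was -0.020 ± 0.25 (SE, adjusted p 0.973), and the change of sign to 0.18 without HHcy 6 is smaller than that error.

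Glycogen phosphorylase was measured in its muscle and liver forms. PYGM, the muscle form, had signals of 270, 790, 196 and 226 on the controls and 63.8, 23.6, 69.6 and 240 on HHcy 5 to 8. HHcy 5, 6 and 7 lay below every control and HHcy 8 among them, and the means were 371 ± 281 and 99.3 ± 96.2 (SD, n = 4 each). PYGM had a log2 fold change of -1.75 ± 0.55 (SE, limma adjusted p 0.171, and from 0.113 to 0.933 in the alternatives), and -1.39 ± 0.51 (adjusted p 0.261) without HHcy 6. Without control 2, the highest array, it was -1.33 (adjusted p 0.318).

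A dimmer PYGM probe set did not overlap between the groups, at 224, 394, 155 and 175 on the controls and 58.6, 146, 46.0 and 58.9 on HHcy 5 to 8. Its log2 fold change was -1.37 ± 0.40 (SE, limma adjusted p 0.158, and from 0.0679 to 0.845 in the alternatives), and -1.66 ± 0.38 (adjusted p 0.135) without HHcy 6. In the covariate fit the brightest PYGM probe set had -0.61 ± 0.49 (adjusted p 0.933) and the dimmer one -1.66 ± 0.51 (adjusted p 0.845). The PYGM probe sets differed on HHcy 6, which was the lowest of all arrays on the brightest and the highest HHcy array on the dimmer one.

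PYGL, the liver form of the phosphorylase, gave 736, 347, 1198 and 939 on the controls and 1235, 17227, 1275 and 677 on HHcy 5 to 8. HHcy 6 was 21.4 times the control mean, HHcy 5 and HHcy 7 lay just above the highest control, and HHcy 8 lay below 3 of the controls. PYGL had a log2 fold change of 1.47 ± 0.81 (SE, limma adjusted p 0.358), 0.46 ± 0.38 (adjusted p 0.575) without HHcy 6, and -0.54 ± 0.50 (adjusted p 0.933) in the covariate fit. The low cardiomyocyte and high smooth muscle marker sums of HHcy 6 stand beside its values on the brightest PYGM and PYGL probe sets, and their part in them was not tested.

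Among the subunits of phosphorylase kinase, PHKG1, the catalytic subunit of muscle, gave 1442, 806, 2181 and 1969 on the controls and 2269, 2715, 2385 and 1961 on HHcy 5 to 8. HHcy 5, 6 and 7 lay above every control and HHcy 8 just below control 4. Its log2 fold change was 0.62 ± 0.31 (SE, limma adjusted p 0.317), while 2 dimmer PHKG1 probe sets had -0.18 and -0.18, and 0.12 and 0.30 without HHcy 6. On both dimmer ones HHcy 6 was the lowest of all arrays, at 523 and 225, while on the brightest it was the highest. The regulatory subunits PHKA2 and PHKB and the catalytic subunit PHKG2 had 0.44, -0.021 and 0.43, with an adjusted p from 0.495 to 0.976, and 0.31, 0.17 and 0.41 without HHcy 6.

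GAA, the lysosomal acid glucosidase that clears glycogen outside the phosphorylase route, gave 124, 53.4, 127 and 52.6 on the controls and 84.8, 504, 211 and 187 on HHcy 5 to 8. HHcy 6, 7 and 8 lay above every control and HHcy 5 among them. For GAA the fit gave a log2 difference of 1.10 ± 0.48 (SE, limma adjusted p 0.263), and 0.71 ± 0.44 (adjusted p 0.462) without HHcy 6.

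Of the glycogen regulators, GSK3B, the kinase that switches glycogen synthase off, gave 252, 293, 219 and 275 on the controls and 210, 345, 201 and 160 on HHcy 5 to 8. HHcy 6 was the highest of all arrays and the other 3 HHcy arrays lay below every control, as did 5.93% of all probe sets without HHcy 6. The fit gave GSK3B a log2 difference of -0.21 ± 0.29 (SE, limma adjusted p 0.717), and -0.41 ± 0.28 (adjusted p 0.502) without HHcy 6. A dimmer GSK3B probe set overlapped between the groups with and without HHcy 6. It gave 60.2 to 171 on the controls and 78.8, 177, 129 and 56.6 on HHcy 5 to 8. Its log2 fold change was 0.080, and -0.14 without HHcy 6. EPM2A, the glycogen phosphatase laforin, had 0.17 ± 0.50 (SE, limma adjusted p 0.876), with HHcy 6 highest at 307, and -0.26 ± 0.46 (adjusted p 0.802) without it. In the covariate fit EPM2A had -0.46. PPP1R3C, a subunit that brings protein phosphatase to glycogen, was too dim to test.

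**Figure D4:**
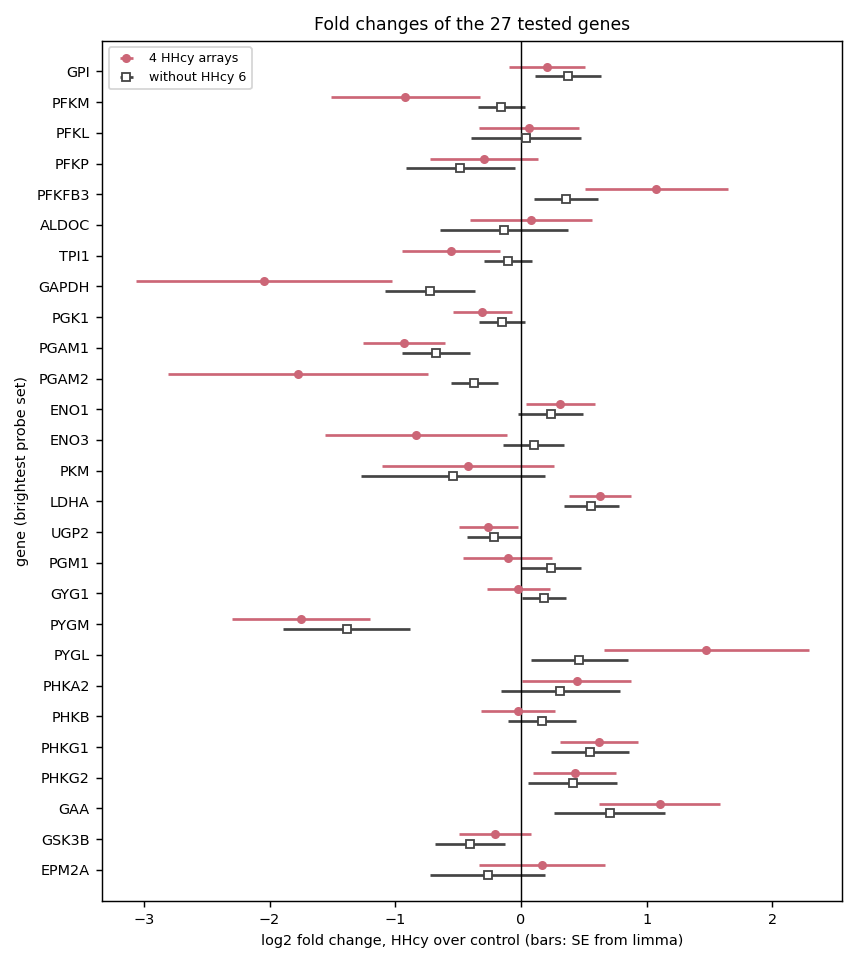
Log2 fold change of HHcy over control (x axis; bars are standard errors from limma) for the 27 tested genes, with all arrays (filled circles) and without HHcy 6 (open squares). Leaving out HHcy 6 brings GAPDH from -2.04 to -0.72, PGAM2 from -1.78 to -0.37 and PYGL from 1.47 to 0.46, and shortens their error bars, while LDHA and PYGM move less.

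The probe sets of these genes that were low in HHcy shared the array on which they were highest. Of the 48 tested probe sets of the 27 genes, 8 had an unadjusted p under 0.05 and a negative log2 fold change, against 5.94% of all probe sets. They belonged to ENO3, PGAM1, PGK1, PYGM and UGP2, so some share a gene, and on 8 of the 8 control 2 was the highest of the 8 arrays. The same held for 648 of all 849 such probe sets (76.3%), so it was not particular to these genes. It held for 19.0% of all 14301, which is not a like comparison. Probe sets picked as lower in HHcy tend to be highest on a control array through that choice. Control 2 had the lowest 3'/5' ratios and HHcy 5 and HHcy 6 the highest. Both probe sets on the higher side, of LDHA and GAA, were highest on HHcy 6, as were 1092 of all 1700 such probe sets. These were likewise picked as higher in HHcy, which favours an HHcy array as the highest.

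Other genes of the pathway, from a further list of 40 names, added glucose transport, pyruvate import and glycogen signalling. Of these, 15 had a probe set and 13 were tested; 0 passed, against 0.0979% of all probe sets. An unadjusted p under 0.05 was found for 1 on the higher side and 2 on the lower, against 17.8% of all probe sets in both directions. The median log2 fold change of the 13 was -0.18, with 5 above 0 and 8 below; without HHcy 6 it was 0.15, with 7 above 0 and 6 below. The 3 of lowest p were PRKAG2, a regulatory subunit of AMP-activated kinase, with -0.94 ± 0.30 (SE, limma adjusted p 0.172), and the glucose transporters SLC2A3, with 0.70 ± 0.23 (adjusted p 0.184), and SLC2A1, with -0.87 ± 0.29 (adjusted p 0.192). Of the 13, the groups did not overlap for 1 higher and 2 lower genes, against 11.4% of all probe sets in both directions. They were the same 3, and picking by low p favours no overlap. SLC2A3 was 817 to 1014 on the controls and 1292 to 1973 on the HHcy arrays. SLC2A1 was 1751 to 2814 and 685 to 1505, and PRKAG2 was 1794 to 4166 and 1053 to 1685, with control 2 highest for SLC2A1 and PRKAG2. Only the brightest of 5 PRKAG2 and of 2 SLC2A3 probe sets was used.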

How the data were processed

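The authors deposited 1 linear intensity per probe set and array. Per the submitters' processing notes these came from MAS5; its version was not given in the sources used here. Each array's mean signal, with 2% left out at each end, was 500.1. Values were analysed as log2(signal + 24), 24 being the 20th percentile, so folds of dim genes are understated. After 77 control probe sets, the dimmest 40% by mean log2 value were left out, which left 14301. Groups were compared with limma 3.58.1 in R 4.3.3 (lmFit, eBayes with an intensity trend), two-sided, adjusted by Benjamini-Hochberg at 0.05. When the comparison was tested on simulated data of 14301 probe sets, the fit recovered 14%, 72%, 88% and 96% of 50 probe sets changed by 1, 2, 3 and 4 log2 units, with 3 false calls among 138. The simulated noise was independent between probe sets and of equal size on every array. The real arrays differed in RNA quality and tissue markers, so these rates need not hold for them.

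In the platform annotation 10549 probe sets carried 1 symbol, 138 carried several and 13226 were unnamed; names were not checked against sequences, none of which were used. Genes described with every array were the tested ones passing or, as fewer than 10 passed, the 10 of lowest p, a fixed set of muscle or sole forms, and those without overlap; 21 met this. Members and lists were chosen with earlier results of these data known. Alternatives changed the scaling, the pseudocount, the filter, the variance model, the array weights and the probe set summary, added a covariate from the actin and GAPDH 3'/5' ratios, or left out arrays. The number of arrays limits the precision.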

Additional observations from a re-analysis of the deposited data

Results flagged for a closer look

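A gap test was made in groups of 4 on log2 signals, comparing the distance of the highest or lowest array from its neighbour with the whole range of the group (Dixon's 95% critical value); chance passes about 1 in 20 groups, and 44 groups were examined. In 9 the value was passed, 7 of them on HHcy 6. HHcy 6 was lowest in its group for PFKM (gap over range 0.885), TPI1 (0.839), PGAM2 (0.921), ENO3 (0.882), PGM1 (0.956) and GYG1 (0.903), and highest for PFKFB3 (0.833). Among the controls, control 1 was highest for PFKFB3 (0.854) and control 2 for PGAM1 (0.875). GAPDH, PYGM and PYGL, whose HHcy 6 values also stood far off, did not pass the gap test.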

How the results depend on the processing

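No gene of the 33 passed in any of the 20 alternatives run; over the 19 tested genes described with every array, the lowest adjusted p was 0.113. No paired analysis was possible because the groups are different dogs and the labels match no HHcy dog to a control dog. The count of 14 changed probe sets was 7 with quantile scaling, 9 with the dimmest 60% left out, 76 with array weights, 5 with the 3'/5' covariate and 5 without both HHcy 5 and HHcy 6, and ran from 3 to 31 without 1 array. The median log2 fold change of the 33 genes was -0.11; it was -0.22 with quantile scaling, -0.41 with median scaling and 0.024 with the covariate, and ran from -0.14 to 0.0036 without 1 array. The covariate turned the sign of 14 of the 27 tested genes, among those described PFKM (0.23), PFKFB3 (-0.19), TPI1 (0.17), GAPDH (0.58), PGK1 (0.0015), PGAM2 (0.56), ENO3 (0.59), PKM (0.094), PGM1 (0.30), GYG1 (0.23) and PYGL (-0.54). Without both HHcy 5 and HHcy 6, ENO3 (0.20), PGM1 (0.25) and GYG1 (0.18) turned sign, GPI did with median scaling (-0.096) and GYG1 with array weights (0.058). Leaving out 1 array gave ranges of -0.049 to 0.37 for GPI, -1.24 to 0.10 for ENO3, -0.83 to 0.18 for PKM, -0.33 to 0.24 for PGM1 and -0.12 to 0.18 for GYG1. LDHA stayed above 0 and PGAM1, UGP2, PYGM and GSK3B below 0 in all alternatives, as PHKG1 and GAA stayed above 0. These signs are those of the brightest probe sets, or of the mean over a gene's probe sets in the alternative that used it. With all arrays, a dimmer GSK3B probe set had 0.080 and the dimmer tested PHKG1 ones had -0.18 each. HK1, HK2, LDHB, PFKFB1, ENO2 and PPP1R3C fell below the filter on dim probe sets and were not tested in the main comparison.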

Other observations

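Marker lists of other cell types, summed over the genes measured, gave these ranges. Endothelial markers (5 of 7) lay at 21487 to 29349 on controls and 22969 to 32723 on HHcy arrays. PECAM1 made up most of each sum and was 30198 on HHcy 6. On that array VWF (815) and TIE1 (840) lay below every control, and ENG and TEK lay within the control range. Skeletal muscle markers (8 of 10) lay at 12722 on HHcy 6 and 21564 to 45524 on the other arrays. ACTA1 made up most of each of these sums and was 12204 on HHcy 6. On that array MYH1, MYH2, MYH4 and TNNT3, all dim, lay above every control, MYL1 and TNNC2 below, and TNNI2 among them. Adipocyte markers (3 of 6) lay at 2214 on HHcy 6 and 399 to 893 on the others. Epithelial markers (4 of 5) lay at 125 to 288 on controls and 320 to 1659 on HHcy arrays. Lymphocyte markers (2 of 7) lay at 129 to 287 and 241 to 423, and the 1 neutrophil marker measured of 6 was dim. No marker gene of these lists passed the adjusted threshold.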
